A study of Homo sapiens with 4 samples.

Results

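IGFBP2 and IGFBP5 are neighbouring genes on the long arm of human chromosome 2, and the contacts described here are those made by the 80-kb region that holds both. SMC1 HiChIP had been run on 4 libraries of A673, an established Ewing sarcoma cell line that carries the EWS-FLI1 fusion. HiChIP joins by ligation the chromatin ends found near each other inside the nucleus and keeps, by immunoprecipitation, those bound by a chosen protein, here the cohesin subunit SMC1, so each paired-end tag (PET) records 1 contact between a pair of anchors. The 2 STAG2-null libraries came from cells edited with CRISPR/Cas9 and grown from single cells, and the 2 wild-type libraries carry the wild-type label and no edit in the labels. Whether the STAG2-null libraries are 1 clone or several, and whether libraries of a group are separate cultures, is not given in the labels, so adjusted p-values rest on a spread among libraries that could be purely technical. Editing and growth from single cells are stated for the STAG2-null libraries only, so they cannot be told apart here from the loss of STAG2. No other treatment, time or allele is given that separates the groups, and all 4 libraries share the fusion-bearing line. The design of the series asked which SMC1 contacts differ with and without STAG2. SMC1 contacts do not measure a transcript, so the loss of STAG2 was not checked here.

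Members were chosen by position and by a PET count: all anchor pairs with an anchor overlapping chr2:217490000-217570000 (hg19) and at least 1 PET in any library. That count is not read as a result. They were 556 of 1125468 pairs and used 11 of 79850 anchors. The region was proposed with results of these libraries known, among them 2 loops at IGFBP2 in the authors' deposited table of differential loops, so the differences between genotypes below describe these libraries and are not independent evidence. Of the 556 pairs, 280 rested on a single PET over the 4 libraries, 56 had a PET in every library, and 16 reached the 20 PETs needed for a test as a loop.

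Insulin-like growth factor binding proteins are secreted proteins that hold IGF1 and IGF2 outside the cell and so limit, or in some settings carry, the growth factors to their receptor IGF1R. IGF signalling is a known growth pathway of Ewing sarcoma cells. IGFBP2 and IGFBP5 both bind IGFs with high affinity, and IGFBP5 also binds the extracellular matrix. In the RefSeq list of assembly GRCh38.p14 the genes are direct neighbours, IGFBP2 on the plus strand and IGFBP5 on the minus strand, so their 3′ ends face each other. Cohesin is a ring complex that holds chromatin loops, which often end at sites bound by CTCF, and STAG2 is one of its alternative STAG subunits.

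The bases before both starts are shown because the IGFBP2 promoter is an anchor of the region and the IGFBP5 start is the other gene end that contacts could join. The 250 bases before each RefSeq start (GRCh38.p14, 5′ to 3′ on the gene's strand) lie at chr2:216633170-216633419 on the plus strand for IGFBP2 and at chr2:216695550-216695799 on the minus strand for IGFBP5. Of 3 listed IGFBP2 starts, the one with the highest GC content is printed. Capitals mark a GC box, GGGCGG.
IGFBP2: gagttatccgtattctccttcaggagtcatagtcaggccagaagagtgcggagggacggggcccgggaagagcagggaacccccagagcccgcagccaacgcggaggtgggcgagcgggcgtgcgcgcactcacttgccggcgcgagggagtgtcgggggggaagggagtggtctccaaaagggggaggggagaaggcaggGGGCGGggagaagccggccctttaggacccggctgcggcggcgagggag
IGFBP5: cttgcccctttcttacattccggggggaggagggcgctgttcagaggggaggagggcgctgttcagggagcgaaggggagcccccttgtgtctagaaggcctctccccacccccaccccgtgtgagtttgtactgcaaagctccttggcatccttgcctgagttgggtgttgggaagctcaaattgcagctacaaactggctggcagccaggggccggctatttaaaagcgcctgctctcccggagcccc
The printed IGFBP2 stretch was 69.2% GC with 22 CpG dinucleotides, and the IGFBP5 stretch 61.2% GC with 8 CpG. The other 2 IGFBP2 starts had 56.8% GC with 7 CpG and 56.4% with 4 CpG, so the printed stretch was selected for its GC content. These compare with medians of 58.0% and 11 over 35116 RefSeq promoters of the same length. Motifs were searched on both strands: GGGCGG (GC box, in 42.6% of all these promoters), TATAAA (a core promoter box, 10.7%), CACGTG (E-box, 6.34%) and GGAAGGAA (a short repeat of the kind EWS-FLI1 binds, 3.06%). The IGFBP2 stretch held the GC box and none of the other 3 motifs, and the IGFBP5 stretch held none of the 4. A match is only a match of letters in this window. The deposited coordinates are in hg19, for which no genome sequence was used here, so the sequence of the anchors themselves is not shown.

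The region as a whole held fewer PETs in STAG2-null than in wild-type cells when counted against the library. This was not so when it was counted against all PETs of distal chromosome 2, its own included. It held 408 and 415 PETs in STAG2-null 1 and 2 and 527 and 567 PETs in wild-type 1 and 2. As a share of the library this was 0.0598% (95% Wilson interval 0.0542 to 0.0658) and 0.0595% (0.0540 to 0.0655) in the STAG2-null libraries. The wild-type shares were 0.0796% (0.0731 to 0.0867) and 0.0741% (0.0683 to 0.0805). Both STAG2-null libraries lay below both wild-type libraries, at 596 ± 2.16 against 769 ± 38.9 PETs per 1000000 (SD, n = 2), a ratio of 0.775. In a fit over all 80-kb windows of the genome the log2 change of the region was -0.38 ± 0.11 (± SE, STAG2-null minus wild-type; adjusted p = 0.0152 in edgeR by its quasi-likelihood test, after Benjamini and Hochberg). The call was lost in DESeq2 (adjusted p = 0.0720), without wild-type 1 (-0.31, adjusted p = 0.436 in edgeR) and without wild-type 2 (-0.44, adjusted p = 0.216 in edgeR).

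The whole of chromosome 2 beyond 170 Mb moved with it. This stretch held 1.92% and 1.98% of the PETs of the STAG2-null libraries and 2.44% and 2.45% of those of the wild-type libraries. Of its 638 tested windows, 13.8% were called lower, against 2.95% of the 19996 windows of the genome, and 51.9% had both STAG2-null libraries below both wild-type ones, against 22.3% of all windows. The median log2 change of these windows was -0.35, and the IGFBP2 and IGFBP5 region ranked 289 of 638 from the lowest. Per 10000 PETs of distal chromosome 2 the region held 311 and 299.9 in the STAG2-null libraries and 327 and 303 in the wild-type libraries, so the groups overlapped. The log2 change on that scale was -0.042 ± 0.093, with a 95% interval from -0.22 to 0.14 (adjusted p = 0.898 in edgeR, where 1.18% of windows were called lower). What underlies the lower share of this stretch was not tested. Values below are therefore given per library total and, as the distal scale, per PETs of distal chromosome 2.

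**Figure D1:**
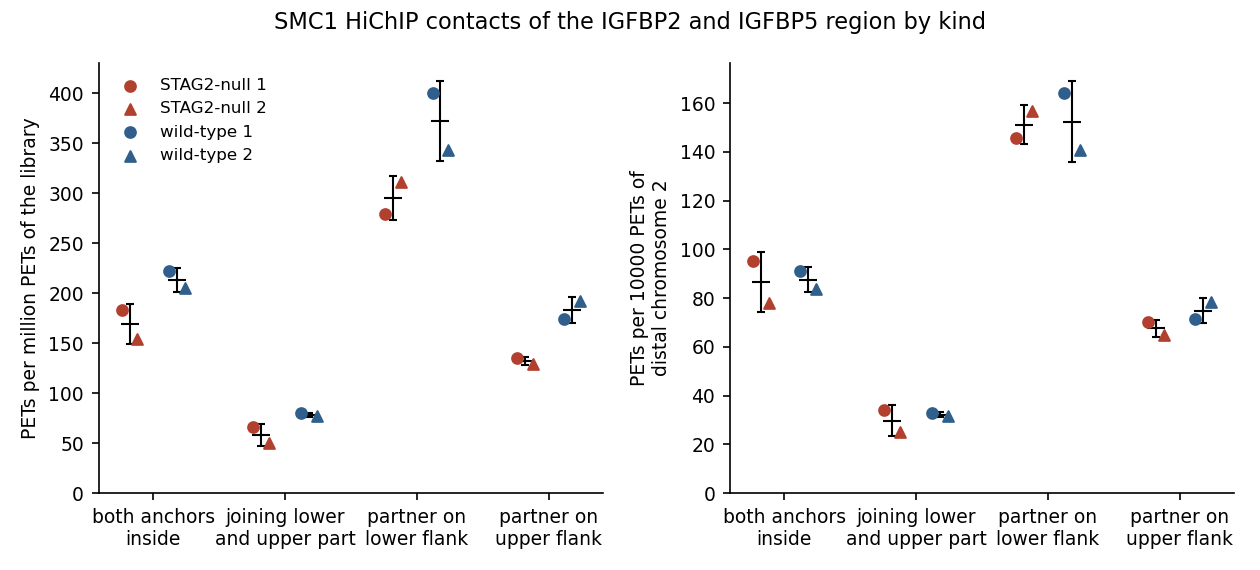
PETs of the region by kind, per 1000000 PETs of the library (left) and per 10000 PETs of distal chromosome 2 (right), with 1 point per library and the mean ± SD of each genotype (n = 2) in black; joining pairs are part of the pairs with both anchors inside. Against the library total all 4 kinds sit lower in both STAG2-null libraries, and against distal chromosome 2 only partners on the upper flank do.

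Contacts within the region and contacts to the flank of lower coordinates made up most of the PETs. Of 1917 PETs in all, 537 joined anchors inside the region (48 pairs), 936 reached the lower flank (244 pairs) and 444 the upper flank (264 pairs). Pairs with both anchors inside held 125 and 108 PETs in STAG2-null and 147 and 157 in wild-type libraries. Per 10000 distal PETs these were 95.3, 78.0, 91.1 and 83.9 in the same order, and the genotypes overlapped. PETs to the lower flank numbered 191 and 217 in STAG2-null and 265 and 263 in wild-type libraries. Their log2 change was -0.33 ± 0.13 against library totals (adjusted p = 0.164 in edgeR, where 1.71% of 15013 windows were called lower) and -0.0054 ± 0.12 against distal chromosome 2 (adjusted p = 0.991 in edgeR). PETs to the upper flank numbered 92 and 90 against 115 and 147. Their log2 change was -0.48 ± 0.16 (adjusted p = 0.106 in edgeR, where 1.28% of 15055 windows were called lower) and -0.15 ± 0.16 on the distal scale (adjusted p = 0.799 in edgeR). The upper flank was the one kind whose STAG2-null libraries stayed below the wild-type ones on the distal scale, at 70.1 and 65.0 against 71.3 and 78.6, where 23.7% of distal windows do so for their whole count. The log2 change in the ratio of upper to lower flank PETs was -0.14, with a 95% interval from -0.48 to 0.20 (adjusted p = 0.914 in limma), and limma called 0 of 12919 windows on this ratio, with 456 lower and 434 higher at an unadjusted p under 0.05. A shift from one flank to the other was thus not detectable at this depth.

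Contacts that joined the lower part of the region, which holds IGFBP2, with the upper part, where IGFBP5 lies, made up 192 of 1917 PETs. Over the genome 13125 windows held at least 1 joining PET, 3508 at least 20 and 1821 at least 40. Counting pairs with 1 anchor midpoint on each side of the region's centre gave 27 pairs with 45 and 35 PETs in STAG2-null and 53 and 59 in wild-type libraries. Both STAG2-null libraries were lower per 1000000 PETs, at 65.9 and 50.1 against 80.1 and 77.1. On the distal scale they were 34.3 and 25.3 against 32.8 and 31.5, and the groups overlapped. The log2 change was -0.43 ± 0.23 against library totals (adjusted p = 0.461 in edgeR) and -0.11 ± 0.22 against distal chromosome 2, with a 95% interval from -0.55 to 0.32 (adjusted p = 0.948 in edgeR). Relative to contacts that left the region, joining contacts had a log2 change of -0.069 (95% interval -0.51 to 0.38, adjusted p = 0.984 in limma, which called 0 of 3507 windows on this ratio, with 97 lower and 116 higher at an unadjusted p under 0.05). Only 2 of 3508 windows of the genome, 0.057%, were called for their joining pairs, both higher in STAG2-null cells.

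Most joining PETs did not link the IGFBP2 promoter anchor with the last anchor of the region. A single anchor near the centre, chr2:217525114-217532906, took part in 6 of the 27 joining pairs and in 115 of their 192 PETs (59.9%). This anchor spans the region's centre and counts as lower by its midpoint, so the joining count rests on that placement. The other 21 pairs held 18 and 12 PETs in STAG2-null and 23 and 24 in wild-type libraries. The authors' deposited table of differential loops flags this central anchor for CTCF, the insulator protein that stops cohesin, and not for FLI1, H3K27ac or a promoter. Flags were read only for the anchors of its 2 loops at the region. Flags of the remaining anchors are not given here, so calling this one CTCF-flagged does not mean that those lack CTCF. The pair from the IGFBP2 promoter anchor to the last anchor of the region, 61.3 kb apart, held 0 and 1 PET in STAG2-null and 2 and 1 PETs in wild-type libraries. From hg19 gene positions known in general, and not from a file used here, the IGFBP5 start falls in that last anchor, chr2:217555786-217565010. With 4 PETs in all between the promoter anchor and the last anchor, a difference between genotypes in this pair was not measurable at this depth. The CTCF-flagged anchor had 24 PETs with the IGFBP2 promoter anchor and 22 with the last anchor. To the promoter these were 3 and 4 PETs against 8 and 9, so both STAG2-null libraries were lower, and to the last anchor 9 and 2 against 5 and 6, where the groups overlapped.

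The 11 anchors differed widely in their contacts, and 3 of them held the most. The CTCF-flagged anchor had 564 PETs over 85 pairs, the last anchor 344 over 91 pairs, and the IGFBP2 promoter anchor, chr2:217495266-217503003, 337 over 73 pairs. The promoter anchor is named for IGFBP2 and flagged for H3K27ac, a mark of active promoters and enhancers, in the authors' deposited table. Anchors are numbered 1 to 11 along the chromosome below, the promoter being anchor 1, the CTCF-flagged anchor 5 and the last one 11. The widths of anchors 1, 5 and 11 were 7737, 7792 and 9224 bp, the widest of the 11, and counts were not divided by width.

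At the CTCF-flagged anchor contacts were lower in both STAG2-null libraries on both scales. It held 115 and 111 PETs in STAG2-null and 159 and 179 PETs in wild-type libraries, or 164 ± 6.66 against 237 ± 4.41 per 1000000 (SD, n = 2). The log2 change was -0.54 ± 0.15 (adjusted p = 0.0497 in edgeR), which made it the 1 called anchor of the 11, where 0.503% of 60425 tested anchors were called lower and 1.39% of the 1721 on distal chromosome 2. Per 10000 distal PETs it held 87.7 and 80.2 against 98.5 and 95.7, with a log2 change of -0.21 ± 0.15 (adjusted p = 0.688 in edgeR, where 0.164% of all anchors were called in either direction). The call was also lost in DESeq2, with a minimum of 1 PET (adjusted p = 0.135 in edgeR) and for pairs of at least 20 kb (adjusted p = 0.143 in edgeR). It was lost too when any 1 of the 4 libraries was left out, with log2 changes from -0.58 to -0.50. Its PETs to the lower flank were 40 and 51 against 70 and 90, those inside the region 61 and 49 against 68 and 71, and those to the upper flank 14 and 11 against 21 and 18. Per library total the STAG2-null libraries were lower in each kind. On the distal scale only the lower flank kept this, at 30.5 and 36.8 against 43.4 and 48.1, and the genotypes overlapped in the other kinds. For their whole count, 43.8% of distal anchors were lower in this way per library total and 22% on the distal scale. The share was not computed by kind.

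The IGFBP2 promoter anchor held 69 and 71 PETs in STAG2-null and 94 and 103 in wild-type libraries. Per 1000000 PETs this was 101 and 102 against 142 and 135, and per 10000 distal PETs 52.6 and 51.3 against 58.3 and 55.1, so the genotypes were apart on both scales. The log2 change was -0.45 ± 0.18 (adjusted p = 0.256 in edgeR) and -0.12 ± 0.18 on the distal scale (adjusted p = 0.888 in edgeR). Inside the region the promoter had 21 and 19 PETs in STAG2-null against 37 and 38 in wild-type libraries. To the lower flank it had 43 and 44 against 50 and 53, and to the upper flank 5 and 8 against 7 and 12. On the distal scale the kinds went apart: contacts inside the region were lower in both STAG2-null libraries, at 16.0 and 13.7 against 22.9 and 20.3. Those to the lower flank were higher in both, at 32.8 and 31.8 against 31.0 and 28.3, and those to the upper flank overlapped. For their whole count, 22% of distal anchors were lower in this way on the distal scale and 18.4% higher. Such shares were not computed by kind. The difference between kinds was not tested.

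The last anchor, at the IGFBP5 end, did not separate by genotype. It held 70 and 89 PETs in STAG2-null and 82 and 103 in wild-type libraries, and STAG2-null 2 lay above wild-type 1. Per 1000000 these were 103 and 128 against 124 and 135. The log2 change was -0.18 ± 0.18 (adjusted p = 0.755 in edgeR), and 0.15 ± 0.18 on the distal scale (adjusted p = 0.847 in edgeR). Whether its change differed from that of the IGFBP2 promoter anchor was not tested. Of its PETs 142 went to the upper flank (25, 37, 32 and 48 in STAG2-null 1 and 2 and wild-type 1 and 2), 105 inside (25, 25, 20 and 35) and 97 to the lower flank (20, 27, 30 and 20).

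Anchors 2, 3 and 4 lie between the IGFBP2 promoter and the CTCF-flagged anchor. Anchor 3, chr2:217511452-217516346, held 65 and 56 PETs in STAG2-null and 100 and 75 in wild-type libraries (log2 -0.50 ± 0.20, adjusted p = 0.237 in edgeR). Anchor 2, chr2:217507685-217509981, held 29, 17, 39 and 24 PETs in the same order, and its genotypes overlapped. Anchor 4, chr2:217520568-217523335, held 65, 62, 64 and 62 PETs, nearly the same count in every library. Per 10000 distal PETs anchor 4 was the 1 anchor higher in both STAG2-null libraries, at 49.5 and 44.8 against 39.7 and 33.1 (log2 0.38 ± 0.20, adjusted p = 0.558 in edgeR). Of distal anchors, 18.4% were apart in this direction on this scale.

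Anchors 6 to 10, between the CTCF-flagged anchor and the last one, were weaker, with 84, 90, 107, 163 and 107 PETs. Their log2 changes ran from -0.53 to -0.089 against library totals and from -0.20 to 0.24 against distal chromosome 2, and none was called in edgeR. Over all 11 anchors, 6 were lower in both STAG2-null libraries per library total, beside 21.3% of all tested anchors and 43.8% of those on distal chromosome 2. Per distal PETs 3 were lower, the CTCF-flagged anchor, the IGFBP2 promoter and anchor 8, chr2:217543094-217544694 (21 and 22 against 28 and 36 PETs), beside 22% of distal anchors.

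**Figure D2:**
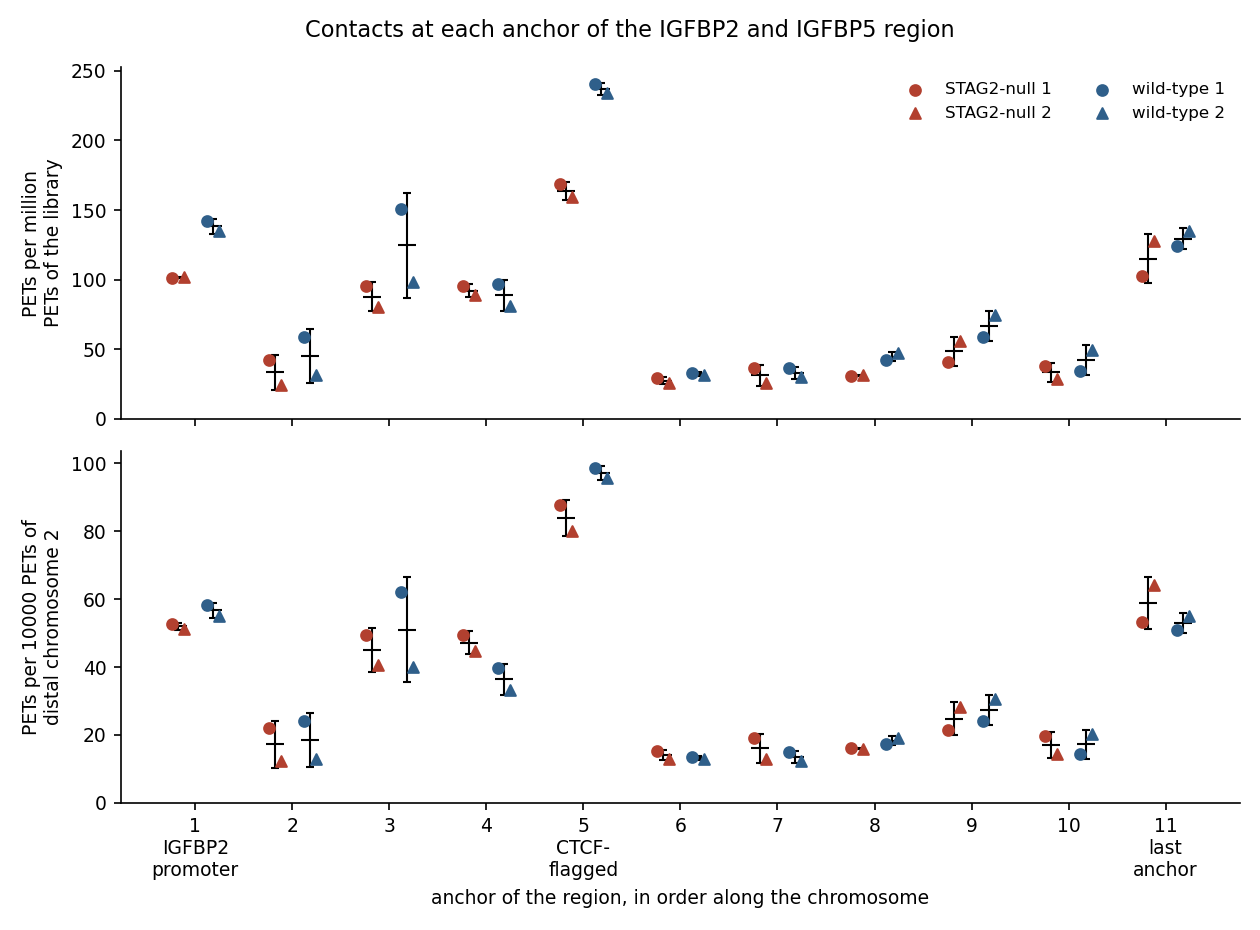
PETs at each of the 11 anchors in order along the chromosome, per 1000000 PETs of the library (top) and per 10000 PETs of distal chromosome 2 (bottom), with 1 point per library and the mean ± SD of each genotype (n = 2). The CTCF-flagged anchor stands highest, at 164 against 237 per 1000000, and its libraries separate by genotype in both panels, while those of the last anchor overlap.

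Single loops held few PETs, and none of the 16 tested loops of the region was called, beside 0.194% of 11872 loops over the genome (10 higher and 13 lower, or 0.0927% with 10 higher and 1 lower when each chromosome is scaled to its own total). At an unadjusted p under 0.05 in edgeR, 564 loops of the genome were lower and 575 higher. The median log2 change of the 176 tested loops of distal chromosome 2 was -0.205 against library totals and 0.206 on the distal scale. Over all tested loops the medians were -0.044 and, scaled to their own chromosome, 0.107. DESeq2 also called 0 of the 16. The strongest loop joined the CTCF-flagged anchor with an anchor 145 kb below it, at chr2:217380873-217386821. It held 14 and 12 PETs in STAG2-null and 13 and 29 in wild-type libraries, and wild-type 2 alone stood above the rest (log2 -0.73 ± 0.38, adjusted p = 0.521 in edgeR). The next joined anchor 4 with the CTCF-flagged anchor 7.06 kb away. It held 22 and 12 against 16 and 14 PETs, with overlapping genotypes.

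Loops of the IGFBP2 promoter went both ways. The 14.8-kb loop from the promoter to anchor 3 held 7 and 5 PETs in STAG2-null and 14 and 15 in wild-type libraries. Its log2 change was -1.30 ± 0.50 (adjusted p = 0.339 in edgeR), and -0.89 ± 0.52 on the distal scale. The 36.1-kb loop to an anchor at chr2:217459798-217466278 held 6 and 5 against 12 and 11 PETs (-1.09 ± 0.53, adjusted p = 0.477 in edgeR). The 14.1-kb loop to chr2:217483064-217487013 was the 1 tested loop higher in both STAG2-null libraries, on both scales, at 10 and 10 against 4 and 10 PETs (0.46 ± 0.52, adjusted p = 0.828 in edgeR). Wild-type 1 stood apart there, and wild-type 2 lay close to the STAG2-null libraries. The promoter thus had fewer PETs in STAG2-null libraries with anchor 3 and with the anchor 36.1 kb below it, and not with the nearest partner below it, and no such loop was called.

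Of the 16, the largest log2 change belonged to a loop of 66.0 kb from that same lower anchor, flagged for H3K27ac in the authors' deposited table, to the CTCF-flagged anchor. It held 2 and 4 PETs in STAG2-null and 14 and 9 PETs in wild-type libraries, or 4.33 ± 1.98 against 16.5 ± 6.64 per 1000000 (SD, n = 2). The log2 change was -1.94 ± 0.62 (adjusted p = 0.189 in edgeR) and -1.54 ± 0.62 on the distal scale (adjusted p = 0.460 in edgeR), and -2.46 to -1.52 when 1 library was left out. The authors' deposited table lists this loop as stronger in wild-type cells, with a log2 change of 1.91 coded wild-type over STAG2-null and an adjusted p of 0.0424. The header names that adjustment IHW, so it is not the Benjamini-Hochberg adjustment used here. Before adjustment the p-value was 0.00158 in the authors' own test and 0.00167 in edgeR here. The same authors' deposited table lists the loop from the IGFBP2 promoter to anchor 3 at 1.27 and an adjusted p of 0.0784. These were 2 of its 650 loops. Of the authors' 22680 high-confidence loops, 26 touched the region, 12 inside it and 14 to the lower flank, and 0 to the upper flank. All 16 tested loops were among the 26.

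The other tested loops were weak and mostly overlapped between genotypes. The loop from anchor 3 to anchor 5 held 6 and 8 PETs in STAG2-null and 12 and 8 in wild-type libraries. The 129-kb loop from chr2:217396888-217403706 to the CTCF-flagged anchor held 8 and 5 against 7 and 13. The loop from anchor 5 to anchor 8 held 2 and 4 against 4 and 10 and was lower in both STAG2-null libraries per library total but not on the distal scale. The remaining 5 joined anchors at most 12.6 kb apart and held at most 31 PETs, with overlapping genotypes. In the loop from anchor 5 to anchor 6 the counts were 11 and 5 in STAG2-null and 8 and 7 in wild-type libraries. In the loop from anchor 9 to anchor 11 they were 4 and 12 against 5 and 8. Over the 16 loops, 5 were lower in both STAG2-null libraries per library total and 1 was higher, beside 17.5% and 22.7% of all tested loops. Per distal PETs 4 were lower and 1 higher, beside 16.5% and 25.6% of the 176 tested loops of distal chromosome 2.

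**Figure D3:**
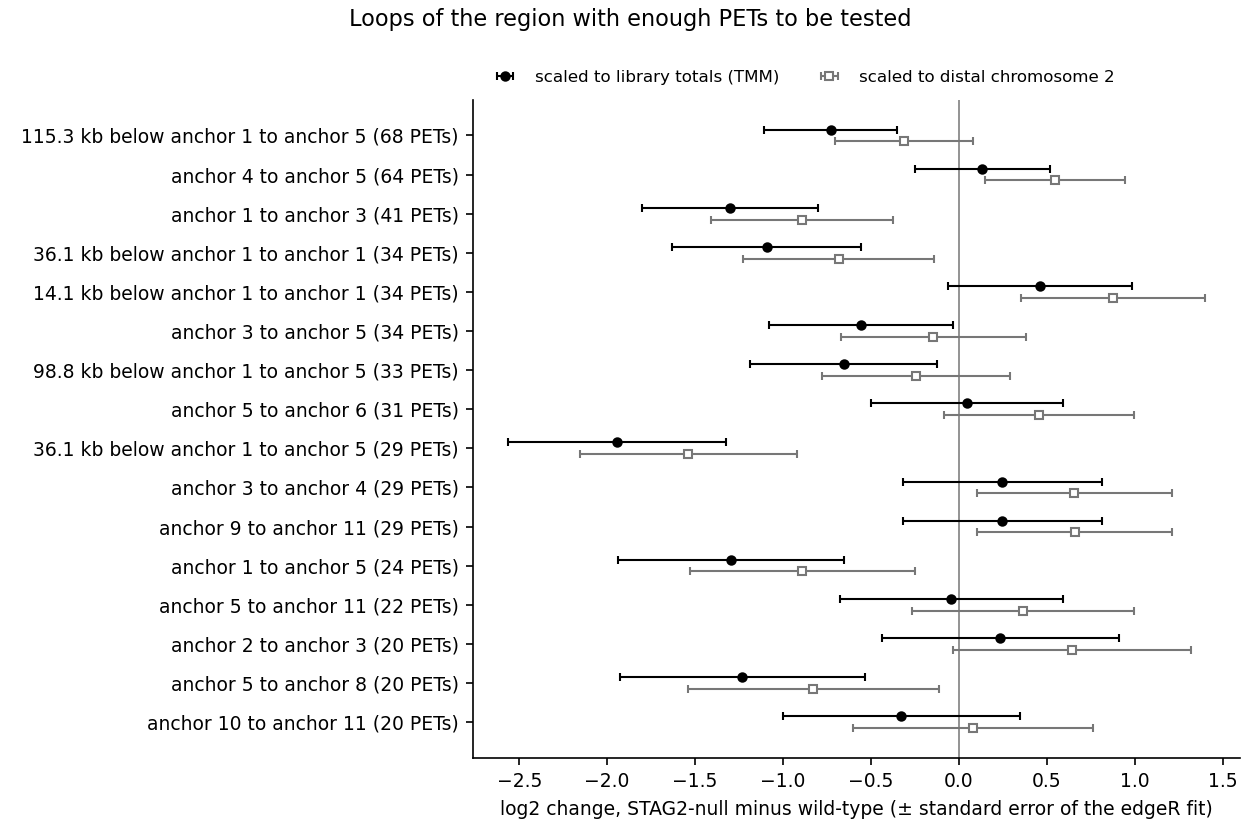
Log2 change of the 16 tested loops (STAG2-null minus wild-type, ± SE of the edgeR fit), in order of their PETs, scaled to library totals (filled) and to distal chromosome 2 (open). The loop from 36.1 kb below anchor 1 to anchor 5 lies lowest, at -1.94 and -1.54, and none of the 16 is called on either scale.

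The flanks were used unequally. On the lower flank 62 partner anchors shared 936 PETs and the top 3 held 42.7% of them, while on the upper flank 73 partner anchors shared 444 PETs and the top 3 held 15.3%. The leading lower partners were chr2:217380873-217386821 with 35 and 41 PETs in STAG2-null and 45 and 49 in wild-type libraries, and chr2:217459798-217466278 with 23 and 25 against 41 and 37. The next were chr2:217396888-217403706 with 30, 21, 24 and 29 PETs and chr2:217408797-217412948 with 11, 18, 22 and 11 PETs, in the order STAG2-null 1 and 2 and wild-type 1 and 2. By count the partners at 217380873 and 217459798 were lower in both STAG2-null libraries. So was chr2:217483064-217487013, with 13 and 14 against 17 and 18 PETs. At 217396888 and 217408797 the genotypes overlapped. These counts were not scaled to the library or to distal chromosome 2. On the upper flank the leading partner, chr2:218590885-218595384, lay 1063.1 kb from the region's centre and held only 7, 5, 4 and 8 PETs.

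Which flank an anchor reached differed with its place in the region. Anchors 1 to 5 lie nearer to the lower flank and anchors 6 to 11 nearer to the upper flank. Anchor 5 spans the region's centre and was placed on the lower side by its midpoint. The shares below were not compared at matched distance or with other windows, so they only describe position. Anchors 1 to 5, on the side of IGFBP2, sent 677 PETs to the lower flank and 180 to the upper, a lower-flank share of 79.0% (95% Wilson interval 76.1 to 81.6). Anchors 6 to 11 sent 259 and 264, a share of 49.5% (45.3 to 53.8). These intervals cover counting error only. By genotype the share of anchors 1 to 5 was 80.0% ± 1.51 in STAG2-null and 78.2% ± 1.60 in wild-type libraries (SD, n = 2). For anchors 6 to 11 it was 52.3% ± 5.17 against 47.8% ± 11.2. The 4 libraries gave 79.0%, 81.1%, 77.1% and 79.4% for anchors 1 to 5, and 48.6%, 55.9%, 55.7% and 39.9% for anchors 6 to 11, so anchors 1 to 5 had the higher share in each library, while the genotypes overlapped within each set.

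Partners near the region were fewer in the STAG2-null libraries by count. Partners 0 to 100 kb above the region's centre, and outside the region, held 3 and 3 PETs in STAG2-null against 15 and 11 in wild-type libraries. Those up to 100 kb below it held 49 and 54 against 87 and 86, or 38.2 ± 1.18 against 49.9 ± 5.63 per 10000 distal PETs (SD, n = 2). Partners 100 to 200 kb above it held 6 and 9 against 15 and 15. In these 3 distance ranges both STAG2-null libraries lay below both wild-type ones on both scales. For their whole count, 51.9% of distal windows did so per library total and 23.7% on the distal scale. The share was not computed for single distance ranges. Partners 100 to 200 kb below the region's centre were higher in both STAG2-null libraries on the distal scale, with 106 and 123 against 123 and 133 PETs, or 84.8 ± 5.71 against 73.7 ± 3.64 per 10000 distal PETs (SD, n = 2). Among single anchors of distal chromosome 2, 18.4% were apart in this direction for their whole count. A share of windows apart in this direction is not given here. Partners 500 to 1000 kb above the centre held 38 and 36 against 37 and 52 PETs, with overlapping genotypes on the distal scale. The distance ranges were not tested as such. The PETs 0 to 100 kb above the centre are the same as those of the merged pair to chr2:217603317-217615451, which is tested below.

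**Figure D4:**
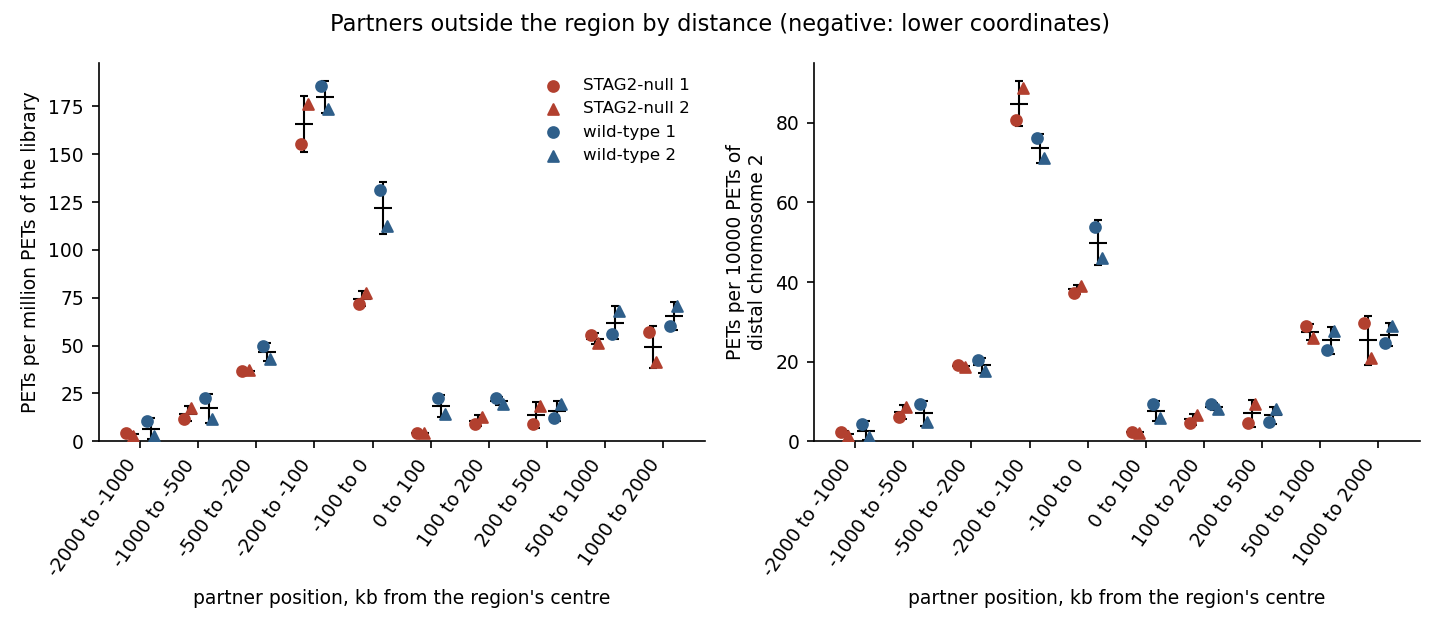
PETs to partners outside the region by their distance from its centre (negative towards lower coordinates; the region itself spans 40 kb to each side), per 1000000 PETs of the library (left) and per 10000 PETs of distal chromosome 2 (right), with 1 point per library and the mean ± SD of each genotype (n = 2). The highest ranges are those up to 200 kb below the region's centre, and the nearest range on either side is lower in both STAG2-null libraries in both panels.

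Merging anchors within 5 kb turned the 11 anchors into 1 and left 14 tested loops of the whole region, none of them called in edgeR (lowest adjusted p = 0.229). The pair with the lowest value joined the region to chr2:217603317-217615451 just above it, with 3 and 3 against 15 and 11 PETs (log2 -2.0 ± 0.58, adjusted p = 0.229 in edgeR). The pair to chr2:217448721-217472358 below it held 32 and 35 against 62 and 59 PETs (-0.78 ± 0.23, adjusted p = 0.237 in edgeR). The pair to chr2:217356448-217373575, farther below, held 25 and 33 against 19 and 28 PETs (0.38 ± 0.29, adjusted p = 0.702 in edgeR). Of the 14, 9 had a negative and 5 a positive log2 change.

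By the width of the pair, contacts of 50 to 100 kb had the lowest ratio. They held 38 and 44 PETs in STAG2-null and 77 and 75 in wild-type libraries, or 30.4 ± 2.00 against 43.9 ± 5.40 per 10000 distal PETs (SD, n = 2), a ratio of 0.692. The log2 change was -0.71 ± 0.21 (adjusted p = 0.0641 in edgeR) and -0.52 ± 0.21 on the distal scale (adjusted p = 0.279 in edgeR). Pairs of 20 to 50 kb held 56 and 39 against 76 and 76 PETs, with -0.60 ± 0.20 and -0.31 ± 0.20 on the 2 scales. Pairs of 100 to 200 kb, the class with most PETs, held 101 and 123 against 125 and 140, with -0.086 ± 0.15 and 0.13 ± 0.15. Pairs of 5 to 20 kb held 94 and 92 against 109 and 115 PETs, with -0.36 ± 0.16 and 0.10 ± 0.15. The classes above 200 kb held 161, 200 and 176 PETs in all, and their values on the distal scale ran from -0.13 to 0.14. None of the 7 classes was called in edgeR, where in order of width 0.739%, 0.408%, 0.578%, 0.265%, 0.511%, 0% and 0.24% of the windows tested were called lower. Scaled to its own chromosome, the median window of the genome stood at 0.14, -0.034, -0.13, -0.11, -0.0021, 0.094 and 0.049 in order of width. The values of the region on the distal scale are to be read beside these medians. The differences between classes were not tested.

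**Figure D5:**
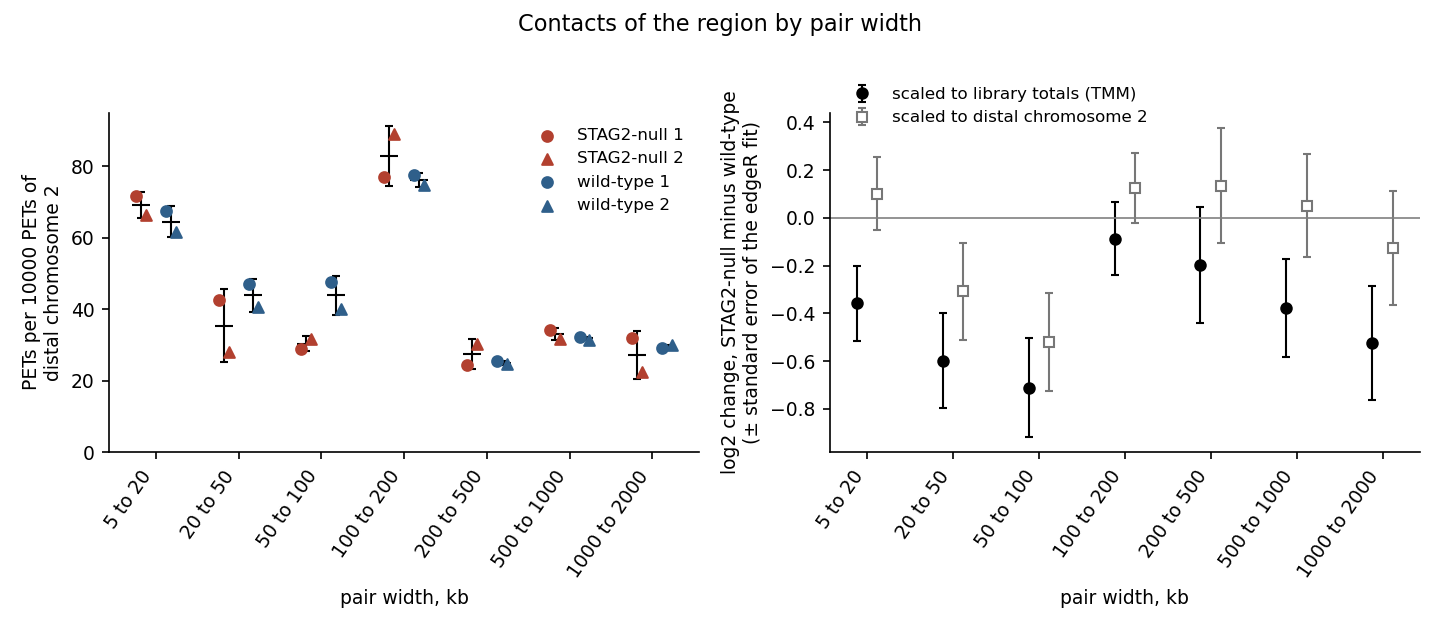
Left, PETs of the region by pair width per 10000 PETs of distal chromosome 2, with 1 point per library and the mean ± SD of each genotype (n = 2). Right, log2 change per width class (STAG2-null minus wild-type, ± SE of the edgeR fit) on both scales. The classes from 20 to 100 kb are the lowest on the distal scale, at -0.31 and -0.52, and none is called. In these classes the median window of the genome lay at -0.034 and -0.13 when scaled to its own chromosome.

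Few other genes of the IGF pathway could be set beside these contacts, because only those promoter anchors are named that carry a name in the authors' deposited table of changed loops. Of 24 genes of the IGF axis, 2 were placed, IGFBP2 and IGF2BP1, an RNA-binding protein named for IGF2 mRNA. The IGF2BP1 promoter anchor held 104 and 101 PETs in STAG2-null and 92 and 88 in wild-type libraries (log2 0.22 ± 0.17 over all anchors, adjusted p = 0.649 in edgeR). Of 15 genes around the region, 2 were placed. The anchor of RUFY4, a RUN and FYVE domain protein, held 80 and 66 against 109 and 136 PETs. It fell by 0.70 ± 0.17 on the log2 scale over all anchors (adjusted p = 0.0177 in edgeR), with a log2 change of -0.37 on the distal scale (adjusted p = 0.452 in edgeR). The anchor of TNS1, which encodes the adhesion protein tensin, was placed by elimination and held 140 and 121 against 179 and 192 PETs (-0.47 ± 0.15, adjusted p = 0.0941 in edgeR). In the fit of the 213 named promoter anchors alone, which the authors listed for changes in these libraries, IGFBP2 stood at -0.52 ± 0.17 (adjusted p = 0.00582 in edgeR, and 0.131 in DESeq2). RUFY4 stood at -0.77 (adjusted p = 5.68e-06 in edgeR) and TNS1 at -0.54 (adjusted p = 0.000214 in edgeR). There 25.8% of the anchors were called lower and 19.7% higher, with a median of 0.072, against 1 lower of 2 IGF axis genes (median -0.18) and 2 lower of 2 neighbours (median -0.65). On the distal scale IGFBP2 stood at -0.12 in that fit and was not called (adjusted p = 0.593 in edgeR, where 9.86% were called lower). RUFY4 at -0.38 (adjusted p = 0.0687 in edgeR) and TNS1 at -0.14 (adjusted p = 0.411 in edgeR) lost their calls there too. The region itself met the merged anchor chr2:218851821-218905509, which covers those of TNS1 and RUFY4, in 6 and 5 PETs in STAG2-null and 9 and 11 in wild-type libraries (log2 -0.77 ± 0.53, adjusted p = 0.66 in edgeR).

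The promoter anchors whose counts ran most like those of the IGFBP2 promoter over the 4 libraries were found by the Euclidean distance of centred log2 PETs per 1000000, among 212 named anchors with a median distance of 0.638. The nearest were those of ASIC4 (distance 0.0739), an acid-sensing channel family gene also on chromosome 2, of C9orf163 (0.117), of INSRR (0.125), the insulin receptor-related receptor, of MAFA (0.141), a transcription factor of insulin-producing cells, and of SIRPA (0.146), a receptor for CD47. ASIC4 held 73, 77, 102 and 117 PETs. For the last anchor, with a median distance of 0.577, the nearest were LZTS2 (0.0373), TSPAN9 (0.137) and a shared anchor of HOXD3, HOXD10 and HOXD11 (0.166), homeobox genes also on chromosome 2. With 4 libraries such a likeness is only a description.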

How the data were processed

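SMC1 HiChIP libraries of A673 cells, 2 STAG2-null and 2 wild-type, were grouped by their titles. Per the submitters' processing notes HiC-Pro and hg19 were used, with no versions; the settings of the loop caller are not given there. The authors deposited, per library, a count of PETs for each anchor pair with a p-value that was not used here, and tables of high-confidence and differential loops with counts, p-values and log2 changes, per the file headers. The libraries held 682724, 698002, 661881 and 765017 PETs.

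The 4 files were joined by anchor pair. PETs were summed per loop, anchor and 80-kb window tiling each chromosome in phase with the region, and tested with edgeR 4.0.16 (quasi-likelihood, TMM on library totals, at least 20 PETs, R 4.3.3) over the whole table with Benjamini-Hochberg adjustment at 0.05. Ratios of kinds of PETs used limma 3.58.1 on log2 ratios with a pseudocount of 0.5 and 1 counting-error weight per window. A further scaling set each feature to the total of its own chromosome, chromosome 2 being split at 170 Mb. Errors are SEs of the fit, SDs over 2 libraries, or Wilson intervals, which cover counting error only. An exact permutation test of 2 against 2 libraries cannot go below a two-sided p of 0.333 and was not used. Alternatives were plain library totals, DESeq2 1.42.0, other minimum counts, a replicate block, each library left out, pairs of at least 20 kb and anchors merged within 5 kb. Methods were checked on simulated counts.

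Named were all 11 anchors, the 10 loops with most PETs (others by count), list genes with a named promoter anchor (405 genes named, 266 placed at 213 anchors) and the 5 genes nearest in profile. Loops 11 to 16 and the merged pairs printed were chosen after their values were seen, as was the split by width. The members and lists were chosen with earlier results of these data known. Same-numbered libraries deviated with r = 0.0031 over 11872 loops, so no pairing by number was seen. With 2 libraries per group and few PETs per loop, this value cannot exclude a pairing. RefSeq promoter sequences are those of GRCh38.p14; both genes were found by symbol.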

Additional observations from a re-analysis of the deposited data

How the results depend on the processing

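Calls at the region depended on the scaling, the tool and single libraries. The change of the whole region was -0.38 on the log2 scale and kept its call with plain library totals, 40 or 1 PETs as minimum, pairs of at least 20 kb and the replicate block (-0.38, adjusted p = 0.0137 in edgeR). It was not called at -0.042 on the distal scale, at -0.043 there with the replicate block, or at -0.38 in DESeq2, and ran from -0.44 to -0.31 with 1 library left out. The count of called anchors was 1, or 0 on the distal scale, with the replicate block on either scale, in DESeq2, at a minimum of 1 PET, for pairs of at least 20 kb, after merging, and with any 1 library left out. Genome-wide, 590 windows were lower and 463 higher, against 126 and 42 in DESeq2, 236 and 185 with own-chromosome scaling and, without wild-type 2, 113 and 41. Anchors called over the genome were 304 lower and 225 higher, 40 and 59 with own-chromosome scaling, and 6 and 1 in DESeq2. Loops were 13 lower and 10 higher, 1 and 7 with plain library totals. The upper over lower flank ratio ran from -0.32 to 0.043 and the joining ratio from -0.31 to 0.17 with 1 library left out. In the fit of 213 promoter anchors, called IGF axis genes fell from 1 to 0 on the distal scale, with or without the replicate block there, and in DESeq2, and ran from 0 to 1 with 1 library left out; called neighbours fell from 2 to 0 on the distal scale and to 1 there with the block. No value that changed sign was called: on the distal scale, widths from 5 kb at 0.10, from 100 kb at 0.13, from 200 kb at 0.14 and from 500 kb at 0.051, anchor 6 at 0.094 (0.090 with the block), anchor 7 at 0.24 (0.23) and anchor 11 at 0.15 (0.15). With 1 library left out the ranges were -0.22 to 0.033 for widths from 100 kb, -0.86 to 0.086 for anchor 2, -0.079 to 0.18 for anchor 4 and -0.36 to 0.15 for anchor 7. They were -0.41 to 0.55 for the loop of anchors 4 and 5, -0.66 to 0.54 for anchors 5 and 6, and -0.37 to 0.66 for anchors 3 and 4. The causes were not tested. Single loops held at most 68 PETs over the 4 libraries. The replicate block put the CTCF-flagged anchor at an adjusted p of 0.0631 in edgeR and changed no other call of the loops or windows.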
